A study of Homo sapiens with 10 samples.

Results

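The GAS1 and DAPK1 neighbourhood is a stretch of chromosome 9 in which the table of histone H3 lysine 27 acetylation (H3K27ac) holds 82 of its 42067 peaks. Its members are all peaks with an hg19 start from 89000000 to 90400000. The limits are positions, but the stretch was chosen by the changes against DMSO that these same libraries had shown. Those changes are therefore given below as a description, and a count of calls here is no independent support for them. GAS1 lies near 89560000 and DAPK1 from about 90112000 to 90323000. The cells were Rh30, an established alveolar rhabdomyosarcoma line, and in all groups they carried PAX3-FOXO1-FKBP, a tagged form of the fusion oncoprotein. The tag lets the ligand dTAG47 send the fusion for degradation. The 4 groups, with 2 H3K27ac libraries each, were DMSO without a stated time, and 500 nM dTAG47 for 2 h, 4 h or 24 h. All 3 treated groups share the DMSO libraries, and neither the level of the fusion nor the identity of the cells could be checked in a table of peaks without gene names.

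H3K27ac marks active promoters and enhancers and is placed by the acetyltransferases p300 and CBP. PAX3-FOXO1 joins the DNA-binding domains of PAX3 to the activation domain of FOXO1 and is known to act largely at distant enhancers. GAS1 encodes a membrane-anchored protein that was found through its expression in growth-arrested cells and that serves as a co-receptor for Hedgehog ligands. DAPK1 encodes a kinase regulated by calmodulin that takes part in cell death and autophagy. In RefSeq (GRCh38.p14, used for gene order only), the 11 entries between GAS1 and DAPK1 are long noncoding RNAs and pseudogenes, among them GAS1RR next to GAS1. CTSL, the gene of the lysosomal protease cathepsin L, is the next protein-coding gene after DAPK1. GAS1 is read from the minus strand, so peaks at lower coordinates lie beyond its 3′ end. DAPK1 is read from the plus strand.

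The libraries held 3540104 to 5001652 counts in peaks, of which the members took 5243 to 7235 (0.148% over all libraries). The median count of a member in a library was 47.5, so a weak peak's level carries a wide counting error. Libraries of one group could differ widely at a single weak peak, as at 90221469 over DAPK1, with 21.4 and 11.6 CPM in DMSO.

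Strong peaks lie at GAS1 and at the beginning of DAPK1, so the bases before both start sites are shown to compare the promoters near which acetylation was high. They come from RefSeq on GRCh38.p14, as GAS1 on the minus strand at chr9:86947507-86947756 and the first DAPK1 start on the plus strand at chr9:87497617-87497866. These coordinates belong to another build than the peaks and cannot be set against them. Capitals mark TAAT, a homeodomain core, and CCAAT, on either strand.
GAS1: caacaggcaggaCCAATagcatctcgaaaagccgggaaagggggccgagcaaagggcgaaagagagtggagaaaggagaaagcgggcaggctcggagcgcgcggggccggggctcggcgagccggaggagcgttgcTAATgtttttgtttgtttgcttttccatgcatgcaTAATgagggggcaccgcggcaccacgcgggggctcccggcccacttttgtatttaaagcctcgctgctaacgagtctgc
DAPK1: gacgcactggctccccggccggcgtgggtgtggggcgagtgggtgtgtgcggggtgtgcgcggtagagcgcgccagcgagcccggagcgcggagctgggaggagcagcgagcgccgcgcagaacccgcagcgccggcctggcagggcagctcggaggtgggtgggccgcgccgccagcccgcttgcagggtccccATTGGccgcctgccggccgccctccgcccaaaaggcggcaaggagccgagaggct
Both are rich in G and C, with 60% in GAS1 and 77.2% in DAPK1. The GAS1 stretch held 2 TAAT matches, 114 and 79 bases before the start, and 47.4% of 35116 RefSeq promoter stretches of the same length held at least 1. CCAAT was found once in each gene, 238 bases before the GAS1 start and, in reverse, 55 bases before the DAPK1 start. It was present in 32% of all stretches. The E-box CANNTG (61.8% of stretches, its form CAGCTG in 14%), the forkhead element GTAAACA (2.98%) and TATAAA (10.7%) were found on neither strand of GAS1 or DAPK1, nor before the second RefSeq start of DAPK1. A match describes letters only.

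Levels are given as CPM, read counts scaled to a fixed library total, with TMM factors that even out library composition. The peak nearest GAS1, at 89561195 to 89561595, averaged 191 CPM over the 8 libraries and ranked 62 of 41791 peaks tested. Another strong peak lay at 89517567 to 89517967, at 83 CPM. At the beginning of DAPK1 a peak at 90112780 to 90113180 averaged 82.5 CPM. Its centre lay 0.98 kb past the approximate first position used for DAPK1, which is not an annotated start. Most members were weaker. Over all 81 tested members the median was 11.8 CPM against 13.7 CPM over all tested peaks, and 33 of 81 reached the latter. A total of 46 peaks lay before GAS1 (more than 50 kb below its position), 5 within 50 kb of it, 18 between the genes, 8 over DAPK1 or up to 2 kb before it, and 5 after DAPK1. The largest gap without a peak was 106 kb, between GAS1 and DAPK1. A single member, at 90372966 to 90373366 with 2 to 16 counts per library, was too weak to be tested.

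After dTAG47, acetylation fell at peaks on the side of GAS1 that points away from DAPK1, up to and including the GAS1 peak, while the peak at the DAPK1 start did not pass the test. At 24 h, 14 of 81 tested members (17.3%) were called lower than DMSO, against 4.88% of all peaks (edgeR quasi-likelihood test over the whole table, adjusted p under 0.05). All 14 lay before GAS1 or within 50 kb of it. Only 2 members (2.47%) were called higher, against 3.46% of all peaks. At 2 h the calls were 5 lower (6.17%, against 1.03% of all peaks) and 0 higher (against 0.194%), and at 4 h 6 lower (7.41%, against 1.67%) and 0 higher (against 0.567%). Without adjustment, p was under 0.05 for 17 members lower and 1 higher at 2 h, and for 13 lower and 3 higher at 4 h. At 24 h this held for 25 lower and 7 higher. The share of all peaks under this threshold was not computed, so these counts have nothing to be set against. Over the members the median log2 change went from -0.16 at 2 h to -0.06 at 4 h and -0.07 at 24 h, with 0 over all peaks at each time.

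Many more members than the called ones lay low on the GAS1 side. Among the 51 peaks before GAS1 or in its zone, both 24 h libraries lay below both DMSO libraries in 29 (56.9%) and above them in 4 (7.84%). For all peaks the shares were 25.1% and 25%. Among the 30 tested peaks from there on, through DAPK1 and beyond, 2 lay below (6.67%) and 12 above (40%). The median log2 change at 24 h was -0.32 before GAS1, -0.25 in the GAS1 zone, 0.07 between the genes, 0.28 over DAPK1 and 0.35 after it. At 2 h, 42 of the 51 peaks had a negative change, against 12 of the 30, and 50.8% of all peaks had a positive one. Weak peaks weigh as much as strong ones in these medians, and the difference between the sides was not tested.

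**Figure D1:**
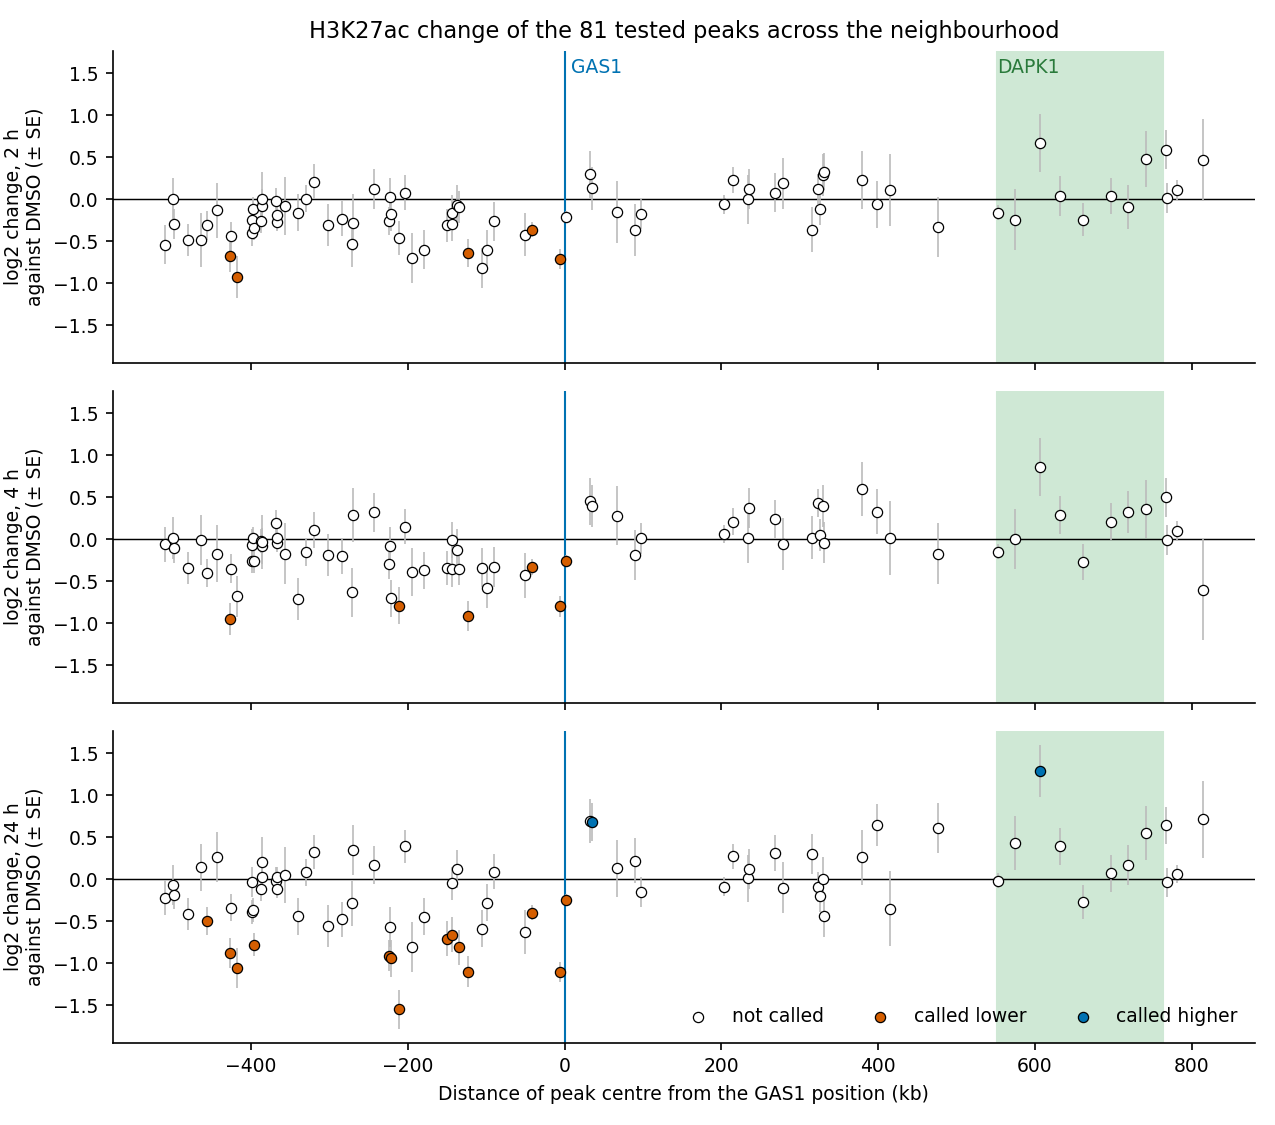
Each point is 1 of the 81 tested peaks, placed by the distance of its centre from the GAS1 position in kb, with its log2 change against DMSO and standard error at 2 h, 4 h and 24 h from top to bottom. Orange points were called lower and blue points higher; the blue line is GAS1 and the green band DAPK1. At 24 h the 14 losses end at the GAS1 peak, and the 2 gains lie beyond it.

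The GAS1 peak itself changed little in proportion. It held 212 and 221 CPM in DMSO, 175 and 199 after 2 h, 174 and 187 after 4 h and then 175 and 189 after 24 h (libraries A and B). All treated libraries lay below both DMSO libraries. The peak kept 86.3% of its DMSO mean at 2 h, 83.3% at 4 h and 83.9% at 24 h, a log2 change of -0.25 (SE 0.07) at the last time. It was called lower at 4 h and 24 h, and DESeq2 made neither call. The 4 h call was lost without DMSO library A (log2 change -0.29), DMSO B (-0.24) or 4 h A (-0.22), and the 24 h call without DMSO B (-0.23) or 24 h A (-0.20).

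Its nearest neighbour, 7.44 kb away at 89553758 to 89554158, lost a larger share of its DMSO level. That peak, on the 3′ side of GAS1, went from 55.2 and 54.6 CPM in DMSO to 36 and 31.4 after 2 h, 29.7 and 33.3 after 4 h and then 24.2 and 26.8 after 24 h. No treated library came near the DMSO level. The share of the DMSO mean left was 61.4%, 57.4% and 46.5% at the 3 times. The log2 changes were -0.71, -0.80 and -1.11, each with SE 0.12. It fell at all 3 times, and the 4 h and 24 h calls held in all 11 alternative settings. DESeq2 did not call it at 2 h.

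The strong peak at 89517567, at -42.2 kb from GAS1, fell by a smaller share. It held 99.9 and 99.4 CPM in DMSO, 78.7 and 76.6 after 2 h, 70.1 and 88.1 after 4 h and then 74.3 and 76.9 after 24 h. The 4 h libraries stood further apart than those of the other groups. It kept 77.9%, 79.3% and 75.8% of the DMSO mean and was called lower each time. DESeq2 called it at no time. The 2 h call was lost without DMSO library A, DMSO B or 2 h B (log2 changes of -0.36, -0.37 and -0.34), and the 4 h call without DMSO A, DMSO B or 4 h A (-0.32, -0.33 and -0.18).

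Beyond GAS1, the 2 weak peaks within 35 kb had positive changes at 24 h, as did 13 of the 46 peaks before GAS1. A change of direction at this place was not tested. A weak peak at 89594293 to 89594693 held 8.26 and 8.24 CPM in DMSO, 9.91 and 8.32 after 2 h, 10.1 and 11.4 after 4 h and then 14.1 and 12.3 after 24 h. It was called higher at 24 h (log2 change 0.68, SE 0.23). That call was lost when any 1 of the 4 libraries compared was left out (log2 changes from 0.57 to 0.77), with offsets that follow abundance and in DESeq2. The peak 2.41 kb before it, at 89591879, went from 6.55 and 6.53 CPM in DMSO to 11.9 and 9.1 at 24 h and was not called.

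Before GAS1, most losses lay together in a few clusters of peaks, beside members of the same clusters that were not called. The one with the largest change, at 89347874 to 89348274, lies at -212 kb from GAS1. It held 16.8 and 17.3 CPM in DMSO, 13.2 and 11.7 after 2 h, 9.82 and 9.93 after 4 h and then 6.54 and 5 after 24 h. Each group lay below the one before it without overlap. Of its DMSO level 33.8% was left at 24 h (log2 change -1.55, SE 0.23), and this call held in all 11 alternative settings. The 4 h call (log2 change -0.79) was lost in DESeq2 and when any 1 of the 4 libraries compared was left out. The log2 changes then ran from -0.77 to -0.81. The next peak along, 8.48 kb away at 89356356, stood at 12.7 ± 0.219 CPM (SD, n = 2) in DMSO and 16.8 ± 2.68 at 24 h and was not called.

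The peak at 89436045 to 89436445, at -124 kb from GAS1, fell early. It held 23.1 and 27.8 CPM in DMSO, 17.1 and 15.8 after 2 h, 12.8 and 14.2 after 4 h and then 11.1 and 12.7 after 24 h. All treated libraries lay below DMSO. It kept 64.5%, 53% and 46.8% of the DMSO mean and was called lower at all 3 times, at 24 h in all 11 alternative settings. DESeq2 called it at 24 h alone. The 2 h call was lost when any 1 of the 4 libraries was left out (log2 changes from -0.49 to -0.77), and the 4 h call without DMSO library B (-0.77).

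A pair of early losses lay far from GAS1, at -426 and -418 kb. The peak at 89133536 to 89133936 held 23.3 and 25 CPM in DMSO, 16.5 and 13.9 after 2 h, 13.6 and 11.4 after 4 h and then 11.9 and 14.6 after 24 h. It was called lower at all 3 times (log2 changes -0.68, -0.95 and -0.88), and by DESeq2 at no time. The 2 h call was lost without DMSO library A (-0.73), DMSO B (-0.63) or 2 h B (-0.55), and the 4 h call without 4 h B (-0.83). Only 1.06 kb further, the peak at 89134594 began from nearly the same level, 24.5 and 23 CPM, and held 19.8 and 17.5 CPM at 24 h, which was not called. The peak at 89141544 to 89141944 held 13.1 and 14.8 CPM in DMSO, 6.33 and 8.11 after 2 h, 11.2 and 6.45 after 4 h and then 8.72 and 4.32 after 24 h. Its libraries spread widely within the treated groups. It was called lower at 2 h and 24 h but not at 4 h, and by DESeq2 at no time. The 2 h call was lost when any 1 of the 4 libraries was left out (log2 changes from -0.78 to -1.13), and the 24 h call without DMSO B (-0.97) or 24 h B (-0.68).

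The other 7 losses were called at 24 h alone, with log2 changes from -0.50 to -0.94. Of these, DESeq2 called only that at 89162971. At 89162971 to 89163371 the levels were 33.3 and 41.5 CPM in DMSO, 33.9 and 26 after 2 h, 27.5 and 34.5 after 4 h and then 24 and 19.1 after 24 h. At 2 h and 4 h the libraries overlapped with DMSO, and at 24 h they did not. The peak at 89336252 held 25.1 and 21 CPM in DMSO, 17.9 and 20.3 after 2 h, 16.9 and 20.4 after 4 h and then 13.9 and 10.5 after 24 h. That at 89338220 held 15.7 and 14.8 CPM in DMSO, 13.2 and 13.7 after 2 h, 10.9 and 7.94 after 4 h and then 7.92 and 7.96 after 24 h. All treated libraries lay below DMSO at both peaks, which kept 52.8% and 52.2% of their DMSO means at 24 h. Between them, the peak at 89337246 had a log2 change of -0.57 and was not called. The peak at 89409856 held 19.4 and 15.1 CPM in DMSO, 16 and 12.2 after 2 h, 10.1 and 16.9 after 4 h and then 9.9 and 11.2 after 24 h. At 89425249 the levels were 14.5 and 18.2 CPM in DMSO, 15.7 and 15.2 after 2 h, 12.8 and 12.9 after 4 h and then 10.3 and 8.19 after 24 h. The 2 h libraries overlapped with DMSO at both, and the 24 h libraries did not. The peaks at 89425249, 89409856, 89415703 and 89103309 kept 56.5%, 61.2%, 62.5% and 70.1%. Each of those 4 calls was lost when certain single libraries were left out. Without 24 h library B the log2 change was -0.67 at 89425249, -0.42 at 89415703 and -0.28 at 89103309, and without DMSO B -0.64, -0.55 and -0.51, none of them called. Without DMSO A the change was -0.52 at 89409856, -0.75 at 89415703 and -0.49 at 89103309, and without 24 h A -0.63 at 89409856, again not called. The peak at 89416760, 1.06 kb from that at 89415703, was at 97.1%. The strongest peak before GAS1, at 89192462 to 89192862, held 68.9 and 55.4 CPM in DMSO and 54.1 and 60.5 at 24 h, and was not called at any time.

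**Figure D2:**
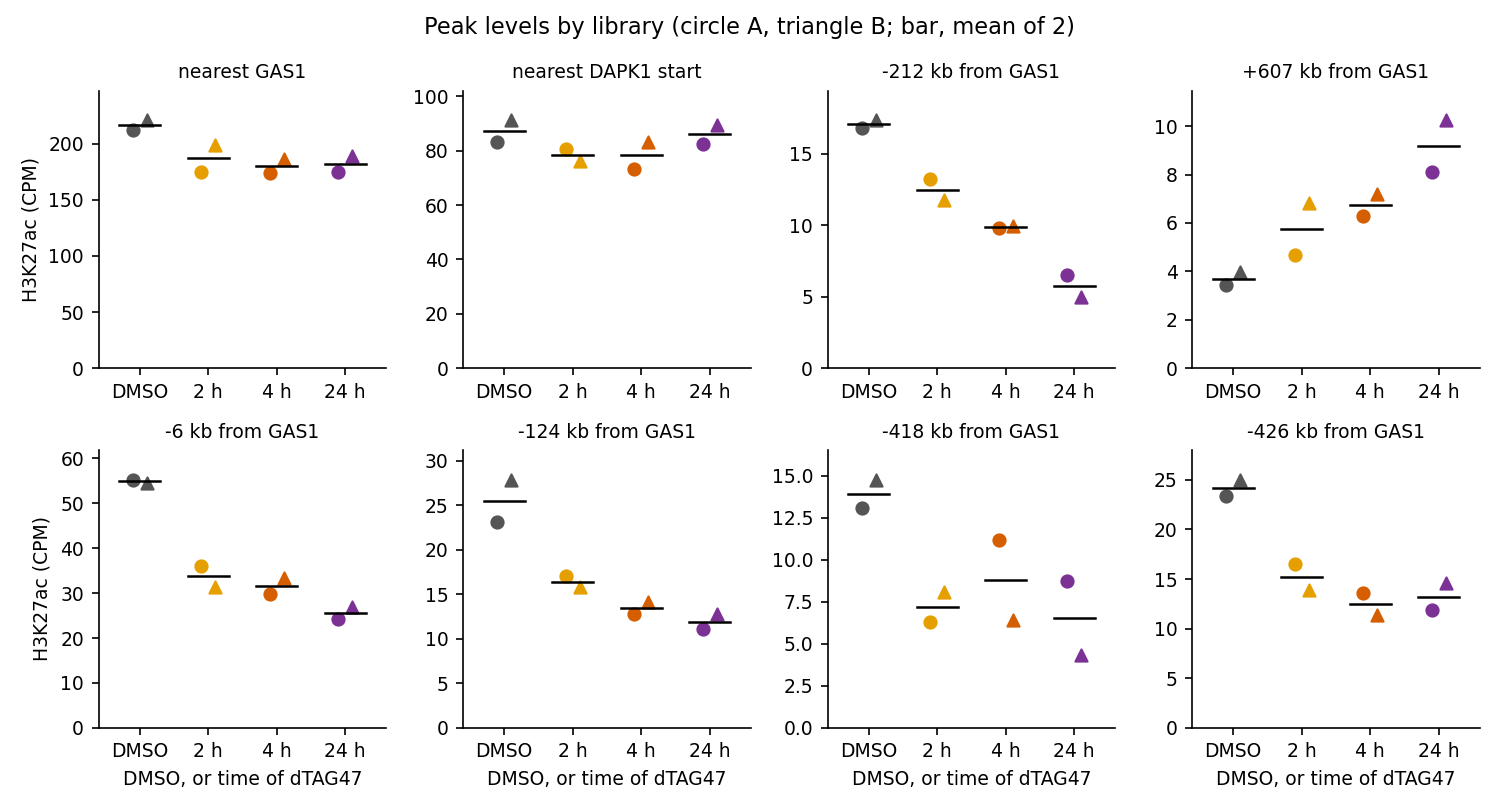
H3K27ac level in CPM (linear axis from 0) for each library at the peaks nearest GAS1 and the DAPK1 start and at the 6 called peaks with the largest changes, named by their distance from GAS1. Circles are A libraries, triangles B libraries and bars the mean of 2; the GAS1 peak stays between 174 and 199 CPM after treatment while its neighbour at -6 kb drops from 54.9 to 25.5 CPM.

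Between the genes, the strongest peak, at 89763457 to 89763857, held 47 and 54.8 CPM in DMSO and 52.9 and 42.3 at 24 h. None of the 18 peaks there was called against DMSO at any time. Of all peaks, 4.88% were called lower and 3.46% higher at 24 h, so few calls fall on 18 peaks. Their log2 changes at 24 h ran from -0.44 to 0.64, with 11 of the 18 positive, against 50.2% of all peaks.

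The peak at the beginning of DAPK1 did not pass the test at any time. It held 83.1 and 91.2 CPM in DMSO, 80.6 and 76.2 after 2 h, 73.4 and 83.1 after 4 h and then 82.4 and 89.6 after 24 h. The 24 h libraries overlapped with DMSO, and both 2 h libraries lay below it. The log2 changes were -0.16, -0.15 and -0.02, each with SE 0.09, which leaves room for a small change either way. Inside the gene, a weak peak at 90166705 to 90167105 went from 3.42 and 3.98 CPM in DMSO to 4.68 and 6.83 after 2 h, 6.27 and 7.2 after 4 h and then 8.12 and 10.2 after 24 h. All treated libraries lay above DMSO. It was called higher at 24 h, at 248% of the DMSO mean (log2 change 1.29, SE 0.31). This rests on 12 and 14 counts in DMSO against 41 and 45 at 24 h, and the call was lost without DMSO library A (log2 change 1.19), without 24 h library B (1.13) and in DESeq2. Of the 8 peaks over DAPK1, 6 had a positive change at 24 h, against 50.2% of all peaks. The 1 called higher stands against 3.46% of all peaks. Neither count of so few peaks was tested.

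After DAPK1, the strongest peak, at 90341085 to 90341485, held 44.1 and 43.8 CPM in DMSO and 44.2 and 47.3 at 24 h. A weaker peak at 90327038, just past the gene, held 9.39 and 9.38 CPM in DMSO and 14.5 and 14.8 at 24 h, with a log2 change of 0.64 (SE 0.22) that was not called. The nearest peaks outside the stretch changed little or were weak. The last one before it, at 88968928, averaged 48.2 CPM in DMSO and 43.3 at 24 h, and the first one after it, at 90559058, 2.7 and 2.41 CPM. The outermost members, at 89049745 and 90374037, had log2 changes of -0.22 and 0.71 at 24 h, and neither was called.

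Summed over its peaks, each zone gave a steadier value than single weak peaks. The 46 peaks before GAS1 held 801 and 807 CPM in DMSO, 688 and 643 after 2 h, 682 and 699 after 4 h and then 660 and 628 after 24 h. No treated library reached DMSO. In the GAS1 zone the sums were 382 and 390 CPM in DMSO, 308 and 323 after 2 h, 291 and 330 after 4 h and then 299 and 314 after 24 h, so most of the drop was present at the first time. The log2 ratio of the means at 24 h was -0.32 before GAS1 and -0.33 in its zone. Between the genes the DMSO libraries themselves held 202 and 240 CPM and the 24 h libraries 238 and 217, an overlap. Over DAPK1 the sums were 147 and 149 CPM in DMSO, 138 and 141 after 2 h, 139 and 154 after 4 h and then 152 and 164 after 24 h. The log2 ratios of the means were -0.08, -0.01 and 0.10, so the sum lay below DMSO first and above it at 24 h. After DAPK1 they were 77.1 and 74.2 CPM in DMSO and at least 81.8 in each treated library.

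**Figure D3:**
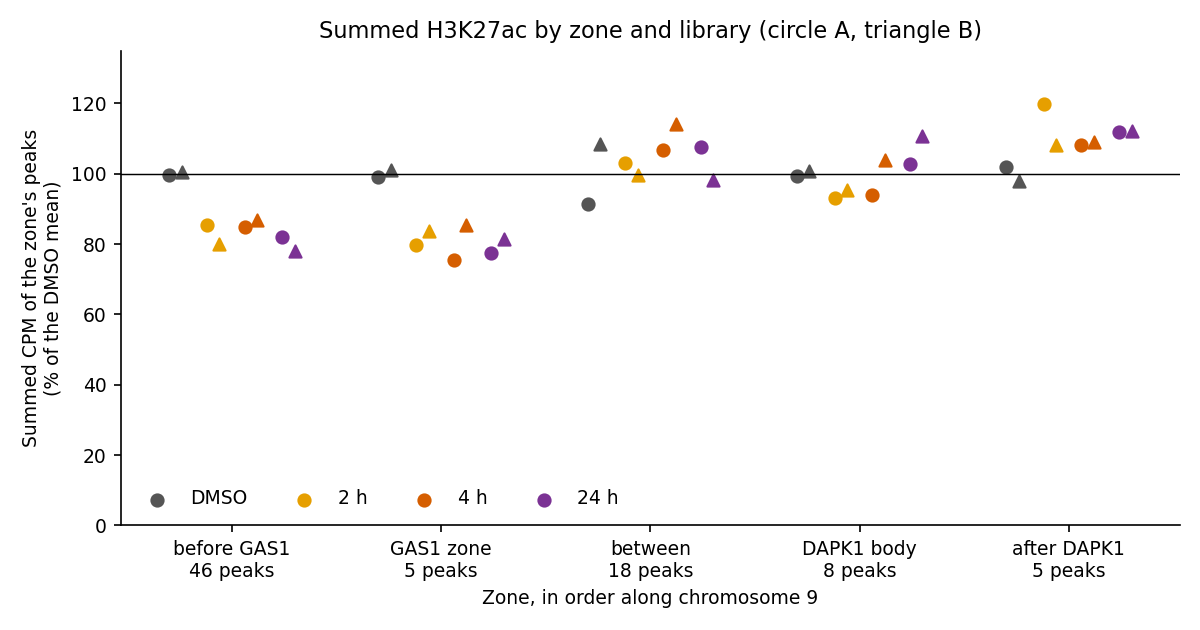
Summed CPM of the peaks in each of the 5 zones for each library, as a percentage of the zone's DMSO mean (linear axis from 0). Colours are the groups, circles A and triangles B libraries; all treated libraries lie below both DMSO libraries before GAS1 and in its zone, and not between the genes.

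Joining peaks no more than 12500 bases apart made 37 regions of the 82 peaks, out of 26144 regions tested in all. Of the 37, 6 were called lower at 2 h (1.53% of all regions), 5 at 4 h (2% of all) and 6 at 24 h (5.55% of all). None was called higher at 2 h (0.474% of all) or 4 h (0.972%), and 2 were at 24 h (4%). The region of the GAS1 peak and its neighbour, 89553758 to 89561595, went from 271 ± 5.25 CPM (SD, n = 2) in DMSO to 221 ± 13.1, 212 ± 10.9 and 207 ± 11.5. The cluster of 6 peaks at 89336252 to 89366109 kept 54.8 ± 0.963 of 87 ± 4.19 CPM at 24 h (log2 change -0.67, SE 0.09). Another of 6 peaks, at 89409856 to 89436445, had a log2 change of -0.57, and one of 3 peaks at 89133536 to 89141944 of -0.68. A region of 3 peaks at 89454013 to 89469610 was called lower at 2 h alone, at 25.8 ± 1.8 CPM against 37.4 ± 1.93 in DMSO, and stood at 31.8 ± 3.24 at 24 h. The regions called higher at 24 h were the pair at 89591879 to 89594693, at 23.7 ± 3.24 against 14.7 ± 0.0307 CPM, and the single DAPK1 peak at 90166705. The lower regions numbered 3 at 2 h without DMSO library B and 2 without 2 h B. At 4 h they numbered 3 without DMSO A and 2 without DMSO B or 4 h A, and 1 gain was left at 24 h without 24 h A.

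The calls against DMSO were most numerous at 24 h, among the members as over all peaks. Of all peaks 1.03%, 1.67% and 4.88% were called lower at 2 h, 4 h and 24 h. All 5 losses called at 2 h and all 6 called at 4 h were also called at 24 h, 4 of them at all 3 times. These comparisons share the DMSO libraries, so their likeness is not counted as a result. Over all peaks fewer losses were called when 1 library was left out, and the sizes of the falls are not compared here. Among the members the number of losses fell as well. At 2 h it was 1 without DMSO library A or B, 3 without 2 h library A and 2 without B. At 4 h it was 3 without DMSO library A, 2 without B, and 4 without either 4 h library. At 24 h it was 11 and 9 without DMSO A and B, and 12 and 10 without 24 h A and B. DESeq2 called 0, 1 and 4 of the members lower at 2 h, 4 h and 24 h and 0 higher. Over all peaks it called 24, 78 and 392 lower, against 431, 697 and 2040 in edgeR, and 0, 4 and 93 higher. The 4 members that DESeq2 called at 24 h were the peaks at 89553758, 89347874, 89436045 and 89162971.

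**Figure D4:**
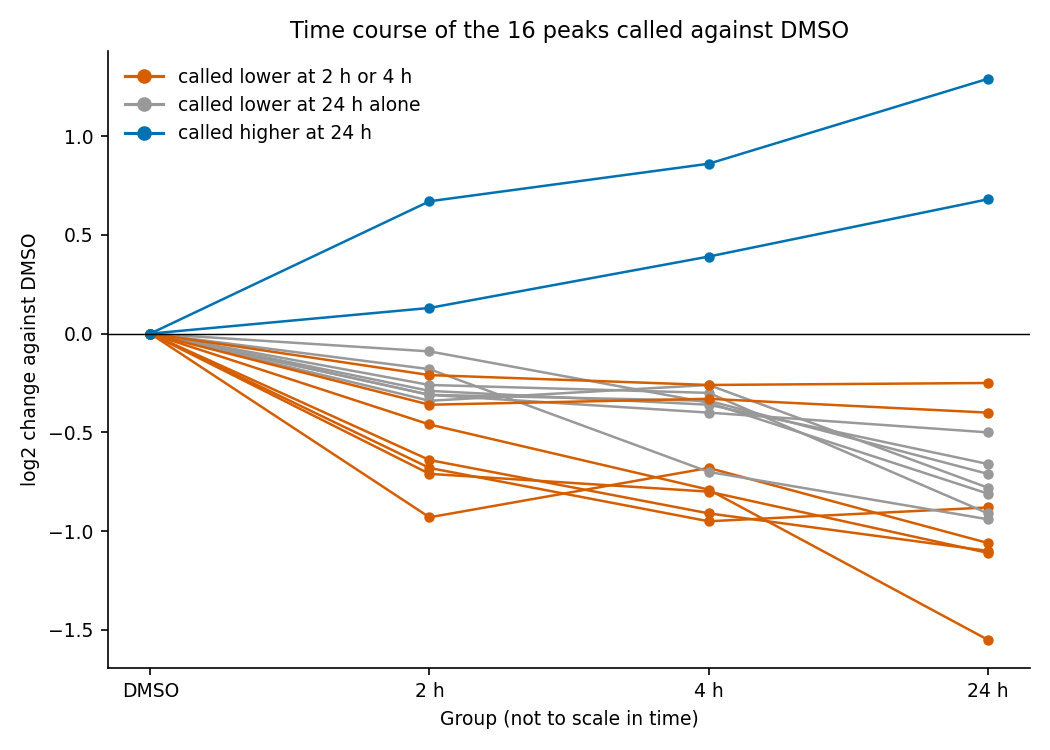
Log2 change against DMSO at each time for the 16 members called at any time (times not drawn to scale). Orange lines were called lower at 2 h or 4 h, grey lines at 24 h alone, and blue lines higher at 24 h; the peak with the largest loss ends at -1.55 and the gains at 0.68 and 1.29.

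Comparisons among treated groups do not use DMSO, though they share the treated libraries with the values above. The stretch was chosen by changes in which those libraries took part, so these comparisons are no independent support either. Between 2 h and 4 h no member was called, nor was any peak of the table (0% lower and 0% higher, edgeR). Without adjustment, p was under 0.05 for 3 members in the lower direction and 2 in the higher, and DESeq2 called 0 members and 0 of all peaks. The share of all peaks under that unadjusted threshold was not computed, here or for the later contrasts. From 4 h to 24 h, 1 member was called lower, against 0.68% of all peaks, and 0 higher, against 0.438%, with 8 lower and 2 higher by that unadjusted threshold. From 2 h to 24 h, 5 were called lower (6.17%, against 2.49%) and 0 higher (against 1.69%), with 9 lower and 9 higher by it. The peak at 89347874 was lower at 24 h than at 2 h by a log2 change of -1.09 (SE 0.24, edgeR adjusted p = 0.00163), with both 24 h libraries below both 2 h libraries. Its change from 4 h to 24 h was -0.76 (SE 0.26, edgeR adjusted p = 0.123). The GAS1 peak showed no further change after 2 h that passed the test (log2 change -0.05, SE 0.07, edgeR adjusted p = 0.771), and its neighbour at 89553758 missed the threshold (-0.40, SE 0.13, edgeR adjusted p = 0.0655). The number of losses from 2 h to 24 h was 2 and 3 without 2 h library A and B, 2 without 24 h library A and 0 without B. DESeq2 called none of them, while it called 49 of all peaks lower. The loss from 4 h to 24 h was not called without 4 h library B, 24 h A or 24 h B.

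Peaks elsewhere with the most similar profiles over the 8 libraries were found by Pearson's r of log2 CPM, as a description. For the summed GAS1 zone they were on chromosome 11 at 18727442 to 18727842 (r = 0.981, from 36 CPM in DMSO to 23.7 at 24 h), chromosome 10 at 50603621 to 50604021 (r = 0.977) and chromosome 2 at 200323316 to 200323716 (r = 0.975). For the summed DAPK1 zone r was 0.969 on chromosome 17 at 28715731 to 28716131, 0.968 on chromosome 2 at 201333139 to 201333539 and 0.966 on chromosome 5 at 133562106 to 133562506. They are the highest values among a great many peaks over only 8 libraries in 4 groups.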

How the data were processed

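H3K27ac was measured by ChIP-seq in 8 libraries, and 2 input libraries were not used. The authors deposited raw read counts in 42067 peak windows of one common set, per the file headers. Per the submitters' processing notes they used Trimmomatic 0.32, Bowtie2, MACS2, DiffBind and DESeq2, with builds hg19 and dm3. Roles, duplicate removal and spike-in use are not given in the sources used here, so a change common to all peaks cannot be seen. Columns were matched to groups by name. Their letters A and B are tied to no replicate number, and 0 columns were left without a group. Whether libraries came from separate cultures is not stated, so p-values may measure technical spread only.

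Counts were fitted with edgeR 4.0.16 in R 4.3.3: filterByExpr (minimum count 10, minimum total 15), TMM, and 1 robust quasi-likelihood model over 4 groups and 41791 peaks, with Benjamini-Hochberg adjustment over all of them. The common biological coefficient of variation was 3.29%. Spread beyond counting error was estimated mostly from all peaks together, with a median prior weight of 182 degrees of freedom. Libraries of a group differed little beyond counting error, with chi-square per degree of freedom from 1.06 in DMSO to 1.21 at 2 h. DESeq2 1.42.0 was an alternative. The procedure was run on counts simulated with the spread estimated here, which cannot show whether that spread includes differences between cultures. Windows lack gene names and no hg19 genome was used, so only the positions of GAS1 and DAPK1 place peaks. Starts may be off by 1 base.

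Values per library are given for the peaks nearest GAS1 and the DAPK1 start, the strongest peak of each zone and up to 12 called peaks with the largest change. Other peaks named beside them were chosen after their values were seen. The members, zones and tests were chosen with earlier results of these data known.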

Additional observations from a re-analysis of the deposited data

Results flagged for a closer look

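In 6 cases a member's change differed between times by the direct test of 2 treated groups (edgeR quasi-likelihood test over all peaks, adjusted p under 0.05). From 2 h to 24 h the log2 change was -1.09 at 89347874 (adjusted p = 0.00163), -0.76 at 89338220 (0.026), -0.65 at 89336252 (0.0216) and -0.72 at 89425249 (0.0222), all before GAS1. Between the genes, the peak at 89890897 changed by -0.77 (adjusted p = 0.026). It went from 15.1 and 11.7 CPM at 2 h to 7.92 and 7.51 at 24 h, with 9.11 and 11.9 in DMSO, and was called against DMSO at no time. From 4 h to 24 h the peak at 89162971 changed by -0.52 (adjusted p = 0.0443). Both later libraries lay below both earlier ones in all 6 cases. The peaks were picked as lower in these same libraries, so this adds no support. DESeq2 called 0 of the 6. The same treated libraries took part in the changes by which the stretch was chosen. Groups of 2 libraries are too small for a check of single libraries that stand apart.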

How the results depend on the processing

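Depth limits weak members most, and DESeq2 gave fewer calls than edgeR. With DESeq2 the members called lower than DMSO numbered 0 at 2 h, 1 at 4 h and 4 at 24 h, and 0 were higher at 24 h. From 4 h to 24 h and from 2 h to 24 h it called 0 of them lower. Over all peaks it called 24, 78 and 392 lower than DMSO at the 3 times, and 93 higher at 24 h. From 4 h to 24 h it called 3 of all peaks lower, and from 2 h to 24 h 49. Its regions numbered 0 lower at 2 h, 2 lower at 4 h and 0 higher at 24 h. Fitting only the 2 groups compared gave 0 losses from 4 h to 24 h and 1 gain from 2 h to 24 h, and total counts also gave 1 such gain. Offsets that follow abundance, added after seeing the data, left 1 gain at 24 h. A stitching gap of 5 kb made 61 tested regions of the stretch, of which 11 were lower at 24 h. With the gap used above, 6 of 37 were lower, so the counts 11 and 6 have different totals. Leaving out 1 library at a time gave 1 to 3 losses at 2 h, 2 to 4 at 4 h and 9 to 12 at 24 h, 0 to 1 gains at 24 h, 0 to 1 losses from 4 h to 24 h and 0 to 3 from 2 h to 24 h. For regions it gave 2 to 5 losses at 2 h, 2 to 4 at 4 h and 1 to 2 gains at 24 h. A group left with 1 library was assumed to vary like the others. Over all peaks, too, fewer losses were called in these fits, and whether the members lost more of their calls was not tested. Matching counts over all regions were not computed. Of the 27 calls of named peaks against DMSO, 5 held in all 11 settings, 22 were lost in DESeq2 and 0 reversed. Omitting DMSO library A lost 12 calls, and omitting B 14. No scaling moved the median log2 change of all peaks by more than 0.023. With the column letter as a replicate block, the losses against DMSO stayed at 5, 6 and 14. Deviations of same-lettered libraries correlated from -0.033 to 0.054. Libraries of a group differed little beyond counting error, so this cannot show whether the letters pair them. Why these values moved was not tested.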
